A study of Mus musculus with 6 samples.

Results

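The genes described here are 35 type I interferon stimulated genes, chosen as a fixed list of mouse symbols that holds viral RNA sensors, regulators of the response and antiviral effectors. All 35 were found among the 24067 genes of the count table and all 35 passed the filter on low counts that 15903 genes passed. They were measured by RNA-seq in 6 libraries of whole tongue, tumour included, from C57BL/6 mice. In both groups the mice were about 34 weeks old and had received the DNA-damaging carcinogen 4-nitroquinoline 1-oxide (4NQO) for 16 weeks, followed by 12 weeks without it. Of the libraries, 3 were labelled wild type (WT) and 3 were labelled knockout (KO) for HuR, an RNA-binding protein encoded by Elavl1. The labels name neither the deleted part of the gene nor a Cre driver, and no group went without the carcinogen. The comparison asks which transcripts differ between carcinogen-treated tongues labelled as with and without HuR.

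Levels are read counts normalised for library size (CPM), and fold changes are log2 of KO over WT with their standard error (SE). A gene is called higher or lower where its p-value from edgeR's quasi-likelihood test, adjusted over all genes tested by the Benjamini-Hochberg method, was under 0.05. Total counts were 29543352 to 51520707 per library. Values per library are given in the order of replicates 1, 2 and 3. The KO libraries held 65.0, 59.3 and 78.4 CPM of Elavl1, and the WT libraries held 61.7, 55.8 and 48.0 CPM. The targeted gene thus showed no lower level under the KO label, and KO and WT below are labels only. KO replicates 2 and 3 had Xist levels of 1271 and 1104 CPM, compared with no more than 2.50 CPM in KO replicate 1 and in each WT library. Their levels of the Y-linked Ddx3y were 0.370 and 0.189 CPM, against 82.5 to 96.4 CPM in the other 4 libraries. These libraries of the KO label therefore stood apart from the other 4 in X- and Y-linked transcripts, and the labels used here do not give sex.

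Type I interferons are secreted proteins that bind the receptor pair Ifnar1 and Ifnar2 and, through the kinases Jak1 and Tyk2, activate Stat2. Stat2 acts with Irf9 in the complex ISGF3, which binds the interferon-stimulated response element (ISRE) in promoters and switches on a large set of genes. The products detect foreign nucleic acids, degrade or block viral RNA, tag proteins with the ubiquitin-like Isg15, and amplify or dampen the response. In epithelia such as that of the tongue the same genes also respond to DNA damage and to infiltrating immune cells, and a low level of many of them is kept without infection.

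The shared response element can be read in the promoters of several members, which are shown because this sequence is the best known feature that the list has in common. RefSeq promoter windows of 250 bases before to 50 bases after a transcript start (GRCm38.p6) were available for 25 of the 35 genes. The ISRE core was searched as GAAANNGAAA on either strand, where N is any base, and overlapping matches were counted separately. It occurred in 13 of the 25 (52.0%), compared with 3.99% of the 27025 genes with a window. The 9 genes with a match before the start are printed 5′ to 3′ on the strand of the gene, from 25 bases before the first match to at most 25 bases after the last, with the matches in capitals.

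Isg15, chr4:156200850-156200921, minus strand: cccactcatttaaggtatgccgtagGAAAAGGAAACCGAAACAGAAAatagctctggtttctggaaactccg
Ifit1, chr19:34640760-34640838, plus strand: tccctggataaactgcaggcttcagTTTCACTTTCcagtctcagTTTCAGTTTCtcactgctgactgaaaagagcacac
Ifit3, chr19:34583348-34583441, plus strand: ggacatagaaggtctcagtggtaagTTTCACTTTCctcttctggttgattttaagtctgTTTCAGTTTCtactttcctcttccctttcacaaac
Rsad2, chr12:26456538-26456597, minus strand: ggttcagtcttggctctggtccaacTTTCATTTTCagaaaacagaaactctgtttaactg
Oas3, chr5:120777700-120777759, minus strand: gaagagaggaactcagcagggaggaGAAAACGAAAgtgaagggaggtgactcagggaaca
Oas1a, chr5:120907526-120907570, minus strand: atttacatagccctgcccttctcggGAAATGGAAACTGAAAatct
Bst2, chr8:71537562-71537627, minus strand: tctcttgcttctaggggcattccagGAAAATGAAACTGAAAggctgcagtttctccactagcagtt
Trim30a, chr7:104465195-104465254, minus strand: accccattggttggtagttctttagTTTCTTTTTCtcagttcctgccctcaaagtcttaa
Stat2, chr10:128270251-128270310, plus strand: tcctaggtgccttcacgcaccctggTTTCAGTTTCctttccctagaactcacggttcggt

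The Isg15 window holds 3 overlapping matches that begin 78 bases before the start, and the windows of Oas1a and Bst2 hold 2 overlapping matches each. Ifit1 and Ifit3 hold 2 separate matches each, all in the reverse orientation. Of all 21 matches, 15 lay before the start, between 14 and 222 bases away. The start here is that of the transcript used for the window, which can lie inside the annotated gene. The printed Ifit3 stretch lies within the annotated gene, and that of Oas1a reaches into it. The other matches lay after the start, in Ddx58, Ifih1, Eif2ak2, Ifitm3 and Trim30a. The gamma-activated site core TTCNNNGAA, an element of interferon-gamma responses, occurred in 6 of the 25 windows (24.0%), compared with 9.55% of all genes, and in Bst2 and Ifitm3 it overlapped an ISRE match. A match describes letters in this window and is not evidence of binding.

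Across the 35 genes the KO libraries had lower levels for most members, with a wide range of size. In edgeR's quasi-likelihood test 6 genes were lower in KO (17.1%, beside 7.43% of all genes tested) and 0 were higher (4.81% of all genes tested). DESeq2 and limma-voom also called 0 members higher, and at an unadjusted p under 0.05 the counts were 20 lower (20.3% of all genes) and 0 higher (18.2% of all genes). The fold change was below 0 in 32 of 35, with a median of −0.53 and a range from −1.44 to 0.22, while the median over all genes tested was 0.02. All 3 KO libraries lay below all 3 WT libraries in 18 members (22.1% of all genes), and all KO libraries lay above in 1, Zbp1 (22.0% of all genes). The count of calls depended on the libraries: it was 0 without KO replicate 1, 2 or 3 or WT replicate 2, 4 without WT replicate 3 and 18 without WT replicate 1, while the median fold change stayed between −0.68 and −0.43 and no member was called higher. Over all genes the lower calls went from 1181 to 6, 0, 3 and 1 without KO replicate 1, 2 or 3 or WT replicate 2, to 437 without WT replicate 3 and to 2938 without WT replicate 1. In whole-tissue RNA, fewer cells of a type and less RNA per cell cannot be told apart.

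**Figure D1:**
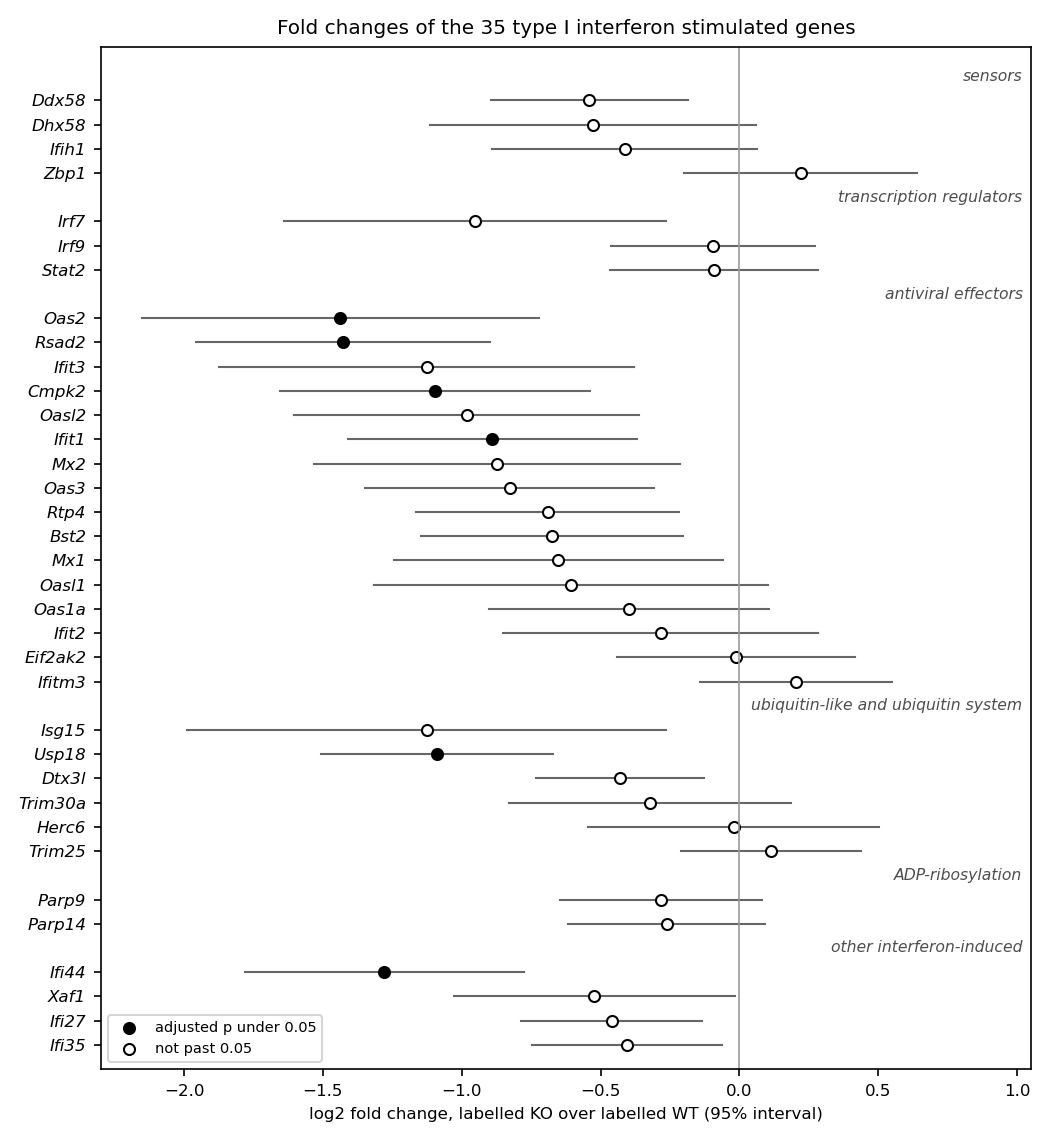
Log2 fold change of KO over WT for each of the 35 genes, grouped by role, with 95% intervals as bars; filled points passed an adjusted p of 0.05. The 6 filled points lie between −1.44 and −0.89, and only Zbp1, Ifitm3 and Trim25 lie to the right of 0.

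The sensors are proteins that recognise foreign nucleic acids. Ddx58 encodes RIG-I, which detects short viral RNA ends. It was at 17.9, 22.6 and 16.6 CPM in the KO libraries and at 25.4, 27.3 and 30.4 CPM in the WT libraries. The groups did not overlap, but the fold change of −0.54 (SE 0.15) had an edgeR adjusted p of 0.0543 and was not called. The long RNA sensor Ifih1 (MDA5) had a fold change of −0.41 and its regulator Dhx58 (LGP2) one of −0.53, in each case with overlapping groups. Zbp1, a sensor of left-handed nucleic acid that can trigger cell death, had the highest fold change of the list, 0.22 (SE 0.18), with an edgeR adjusted p of 0.387. Its WT libraries were tightly grouped at 5.73 to 5.94 CPM, and KO replicate 3, at 5.96 CPM, was barely above them. Of the 4 sensors edgeR called 0, with 1 lower at an unadjusted p under 0.05, and DESeq2 and limma-voom each called 1 lower, Ddx58 (adjusted p = 0.0122 and 0.0483).

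All 3 transcription regulators had fold changes below 0, and edgeR called none of them. Stat2 and Irf9, the parts of ISGF3 that are on the list, were among the members with the most counts. Stat2 was at 59.0, 64.7 and 42.7 CPM in KO and at 59.7, 61.8 and 55.8 CPM in WT. The highest and the lowest of the 6 libraries were both KO, so the groups overlapped throughout, and the fold change was −0.09 (95% interval −0.47 to 0.28). Irf9 was at 46.3, 56.2 and 37.8 CPM in KO and at 49.7, 53.7 and 46.4 CPM in WT. Again KO replicate 2 was the highest library and KO replicate 3 the lowest. Irf7, the factor that amplifies interferon production, was at 15.0, 22.2 and 15.1 CPM in KO and at 22.7, 28.9 and 49.8 CPM in WT. Its groups were separated by only the gap between KO replicate 2 and WT replicate 1, and its fold change of −0.95 (SE 0.30) had an edgeR adjusted p of 0.0656. Of the 3 regulators edgeR and limma-voom called 0, edgeR with 1 lower at an unadjusted p under 0.05, while DESeq2 called Irf7 lower (adjusted p = 0.0115).

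Antiviral effectors made up 16 of the 35 genes and held 4 of the 6 calls (25%, beside 7.43% of all genes). Their median fold change was −0.76. All KO libraries lay below all WT libraries in 11 of these 16 genes, beside 22.1% of all genes. Rsad2 encodes viperin, a radical SAM enzyme that makes a chain-terminating nucleotide. It was at 4.01, 4.29 and 3.76 CPM in KO and at 7.45, 12.8 and 12.2 CPM in WT. The KO libraries were almost equal and WT replicate 1 was the lowest of the WT group, yet well above them. The fold change was −1.43 (SE 0.23), that is 2.69 times higher in WT, with an edgeR adjusted p of 0.0295. Cmpk2, a mitochondrial nucleotide kinase, was at 4.16, 4.84 and 3.79 CPM in KO and at 6.28, 11.2 and 9.81 CPM in WT. Within each group its libraries stood in the same order as those of Rsad2, and its fold change was −1.10 (SE 0.24, edgeR adjusted p = 0.0370). The start of Cmpk2 lies 12.7 kb from that of Rsad2 on chromosome 12, and the genes run in opposite directions.

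The oligoadenylate synthetases make the second messenger that activates the RNA-degrading enzyme RNase L, and the Oasl proteins are relatives that act on RNA sensing. Oas2 was at 16.4, 29.6 and 17.6 CPM in KO and at 44.9, 45.2 and 82.3 CPM in WT. WT replicate 3 stood far above the other WT libraries, and every KO library was below every WT library. The fold change was −1.44 (SE 0.31, edgeR adjusted p = 0.0363), the lowest on the list. Its neighbour Oas3, 3.21 kb away on chromosome 5, was at 7.65, 12.4 and 9.10 CPM in KO and at 14.8, 15.4 and 21.5 CPM in WT. Oas3 had a fold change of −0.83 (SE 0.23) and an edgeR adjusted p of 0.0509. Oasl2 was at 21.2, 34.9 and 19.1 CPM in KO and at 40.3, 43.5 and 64.6 CPM in WT, with a fold change of −0.98 (SE 0.27) and an edgeR adjusted p of 0.0510. In both genes the groups were separate and WT replicate 3 was again the highest library, but neither passed the threshold. Oas1a (−0.40) and Oasl1 (−0.61) were not called and their groups overlapped. The Oas1 genes are close copies of each other, so the value of Oas1a is uncertain.

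The Ifit proteins bind viral RNA that lacks the host's cap methylation and block its translation. Ifit1 was at 7.45, 11.7 and 6.94 CPM in KO and at 13.8, 17.5 and 17.0 CPM in WT, with KO replicate 2 nearest to the WT group. The fold change was −0.89 (SE 0.23, edgeR adjusted p = 0.0449). Ifit3 was at 2.90, 5.11 and 3.17 CPM in KO and at 5.85, 6.92 and 11.6 CPM in WT. The groups did not overlap, but KO replicate 2 came close to WT replicate 1, and the fold change of −1.13 (SE 0.32) had an edgeR adjusted p of 0.0555. Ifit3 has a near-identical copy, Ifit3b, whose symbol was not among the counted genes, so the counts of Ifit3 are uncertain. Ifit2, the third gene of this cluster on chromosome 19, had a fold change of −0.28 and overlapping groups, with KO replicate 2 at 14.0 CPM above every WT library.

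Among the remaining effectors, Rtp4, a chaperone of membrane receptors that also binds viral replication complexes, was at 8.11, 11.9 and 7.83 CPM in KO and at 13.0, 14.5 and 17.4 CPM in WT (−0.69, SE 0.21, edgeR adjusted p = 0.0594). Every KO library was below every WT library. Bst2, or tetherin, which holds budding virus at the cell surface, had a fold change of −0.68 with separate groups and was not called. The dynamin-like GTPases Mx1 (−0.65) and Mx2 (−0.87) also had separate groups and were not called. RefSeq annotates both as transcribed pseudogenes, and C57BL/6 mice are known to carry non-functional Mx alleles. Eif2ak2, the kinase PKR that stops translation, had a fold change of −0.01 (95% interval −0.44 to 0.42). Ifitm3, which blocks virus entry at endosomal membranes, was at 103, 124 and 124 CPM in KO and at 116, 85.0 and 104 CPM in WT. Its groups overlapped, and the fold change of 0.20 (SE 0.15) was the second highest of the list.

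**Figure D2:**
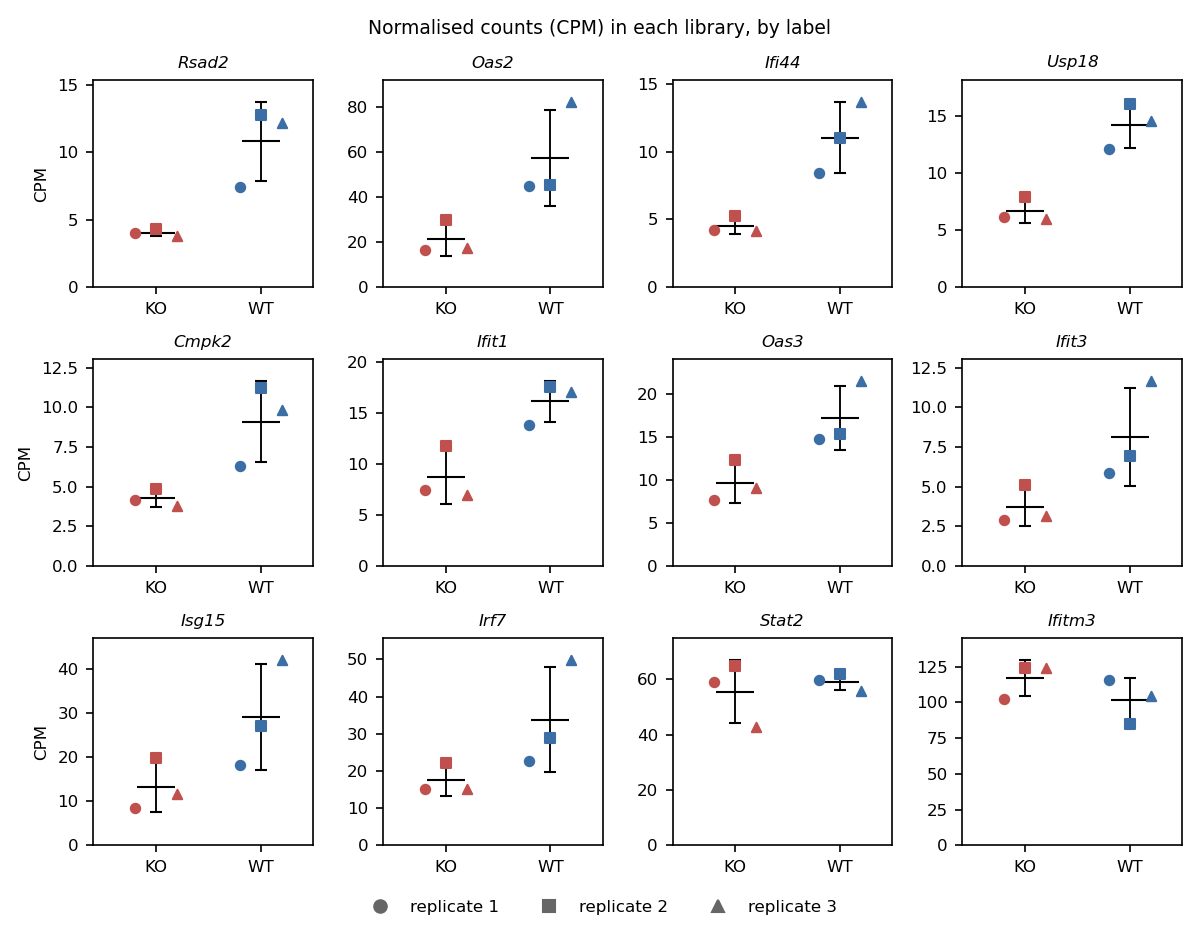
CPM in each library for 12 genes, with KO in red and WT in blue, the marker shape giving the replicate and black bars the mean and SD of 3 libraries. In the first 8 panels every KO point is below every WT point; Isg15, Stat2 and Ifitm3 overlap, and Irf7 is separated by a narrow gap.

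Of the 6 genes of the ubiquitin-like and ubiquitin system, 1 was called lower (16.7%, beside 7.43% of all genes). Usp18, the protease that removes Isg15 from proteins and also restrains signalling at the interferon receptor, was at 6.14, 7.94 and 6.00 CPM in KO and at 12.1, 16.0 and 14.6 CPM in WT. The groups were far apart compared with their spread, and the fold change was −1.09 (SE 0.18, edgeR adjusted p = 0.0311), or 2.13 times higher in WT. Isg15 itself was at 8.45, 19.8 and 11.6 CPM in KO and at 18.3, 27.0 and 41.9 CPM in WT. Its fold change of −1.13 was close to that of Usp18, but KO replicate 2 was above WT replicate 1, the SE was 0.37 and the edgeR adjusted p was 0.0744. Trim25, a ligase that acts on RIG-I, was at 80.8, 81.2 and 73.6 CPM in KO and at 81.6, 76.5 and 59.4 CPM in WT, with only WT replicate 3 standing lower. Its fold change was 0.11 (95% interval −0.21 to 0.44). The ligase Herc6, which attaches Isg15 in mice, had a fold change of −0.02, and Trim30a, one of a family of close copies, one of −0.32. Dtx3l, the ligase that pairs with Parp9, had a fold change of −0.43 with separate groups and was not called.

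Parp14 and Parp9 are the ADP-ribosyltransferases of the list. Parp14 was at 37.2, 44.7 and 31.6 CPM in KO and at 42.3, 50.6 and 43.1 CPM in WT. Its fold change was −0.26 (95% interval −0.62 to 0.09), and Parp9 had a fold change of −0.28. Their groups overlapped because KO replicate 2 reached the WT levels. Neither gene was called by edgeR, DESeq2 or limma-voom, and neither had an unadjusted p under 0.05 in edgeR. Parp14, Dtx3l and Parp9 are neighbours on chromosome 16, and the annotated 5′ ends of Dtx3l and Parp9 overlap by 558 bases on opposite strands. The strand setting of the counting is not given in the sources used here, so reads from that overlap cannot be told apart.

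The other 4 members have less defined roles. Ifi44, a GTP-binding protein that restrains cell growth and interferon signalling, was at 4.18, 5.29 and 4.17 CPM in KO and at 8.43, 11.0 and 13.7 CPM in WT. All KO libraries were well below the lowest WT library, and the fold change was −1.28 (SE 0.22, edgeR adjusted p = 0.0312), or 2.43 times higher in WT. Ifi27, a small mitochondrial and nuclear membrane protein, was at 51.1, 54.9 and 57.4 CPM in KO and at 61.6, 78.6 and 84.7 CPM in WT. Its groups were separate, but the fold change of −0.46 (SE 0.14) had an edgeR adjusted p of 0.0633. Ifi35 (−0.41) also had separate groups, and the apoptosis factor Xaf1 (−0.52) had overlapping ones; neither was called.

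Per kilobase of annotated exon the order of the levels was different from that of the fold changes. In WT the highest members were Ifitm3 at 150 CPM per kilobase, Ifi27 at 51.1, Isg15 at 38.4 and Bst2 at 35.1. Rsad2 stood at 2.49 CPM per kilobase and Ifi44 at 1.80, so some of the called genes were among the lower-expressed members, while Oas2, at 12.9, was the sixth highest. Herc6 was the lowest, at 0.895 CPM per kilobase.

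The same libraries often stood at the ends of the range within a label. KO replicate 2 was the highest KO library in 31 of 35 genes and KO replicate 3 the lowest in 24. In the WT group, replicate 3 was the highest in 21 genes and replicate 1 the lowest in 25. Over all 6 libraries, WT replicate 3 was the highest in 20 genes and KO replicate 3 the lowest in 22. The mean log2 CPM over the list was 3.65, 4.08 and 3.58 in the KO libraries and 4.16, 4.35 and 4.52 in the WT libraries, so the highest KO library lay just below the lowest WT library. The median coefficient of variation was 23.6% in KO and 14.0% in WT.

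Each KO library was also set against the WT group on its own. KO replicate 1, whose Xist level was as low as in WT, was below all 3 WT libraries in 28 of 35 members, beside 37.1% of all genes. KO replicate 3 was below all WT libraries in 32 members (34.4% of all genes) and KO replicate 2 in 18 (35.5% of all genes). The KO replicates 2 and 3, which share the high Xist level, stood at the opposite ends of the KO group for these genes. With Xist status added to the model, the median fold change of the members was −0.67 and 0 members were called, as were 0 of all genes. Only libraries of the KO label had a high Xist level, and only KO replicate 1 carried that label without it. Xist status and the label were thus confounded in part, and a fit of both rests on KO replicate 1 to separate them. The part of Xist status in these differences was not tested.

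The median fold changes of members with and without the ISRE core lay close together. The median was −0.54 in the 13 genes with a match, −0.48 in the 12 genes with a window and no match, and −0.59 in the 10 genes without a window. Each of the 3 sets held 2 called genes (7.43% of all genes) and 6 genes with all KO libraries below all WT libraries (22.1% of all genes). Of the called genes, Rsad2 and Ifit1 had a match, Ifi44 and Cmpk2 had none in this window, and Oas2 and Usp18 had no window.

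**Figure D3:**
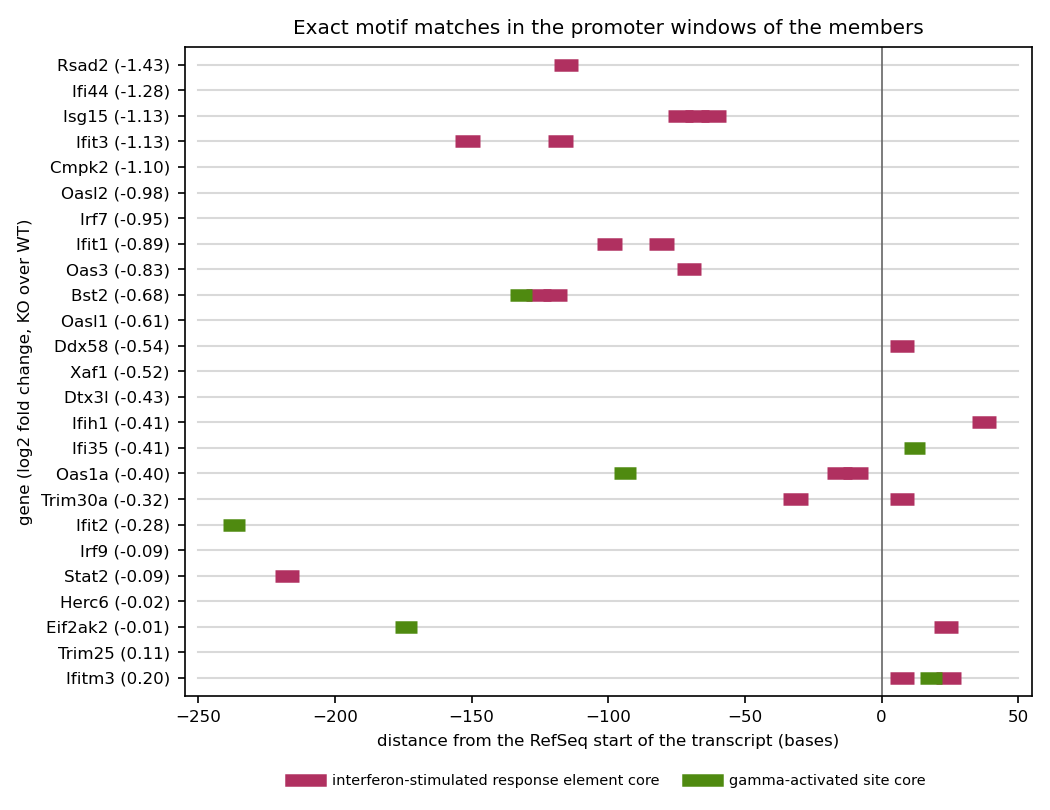
Exact matches of the ISRE core (red) and of the gamma-activated site core (green) in the RefSeq windows of 25 members, by distance in bases from the transcript start, ordered by fold change of KO over WT. ISRE matches before the start are seen from Rsad2 (−1.43) to Stat2 (−0.09), and windows without a match are spread over the same range.

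Other genes of the pathway are described by their counts and medians. Beside these counts, edgeR called 7.43% of all genes tested lower and 4.81% higher. At an unadjusted p under 0.05 in edgeR the shares were 20.3% and 18.2%. Of 20 type I and type III interferon genes none passed the filter, and the most counts of any over the 6 libraries together was 7, for Ifnz; Ifnb1 had 1 count in KO replicate 3, 1 in WT replicate 1 and 0 elsewhere. A difference in these ligands was not detectable at this depth. Among 9 receptor and JAK-STAT genes 1 was lower, Ifngr2 (−0.75, SE 0.16, edgeR adjusted p = 0.0371), a chain of the interferon-gamma receptor, and 0 were higher. Ifnar1 (−0.03) and Ifnar2 (0.14) were not called. Among 14 sensing and adaptor genes 1 was lower, Mavs (−0.53, SE 0.14, edgeR adjusted p = 0.0481), the mitochondrial adaptor of RIG-I, and 1 was higher, Myd88 (0.59, SE 0.16, edgeR adjusted p = 0.0492), the adaptor of most Toll-like receptors. Of 7 negative regulators 0 were called in either direction, although 3 had an unadjusted p under 0.05 with a higher level and 0 with a lower one, with calls of up to 3 higher and 1 lower under the other settings. The smallest p-values belonged to Socs1 (0.77, edgeR adjusted p = 0.0853) and Ptpn6 (0.43, edgeR adjusted p = 0.125).

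A second list of 36 measured interferon-stimulated genes outside the 35 had a median fold change of −0.10. The shares of all genes to set beside the counts below are again 7.43% lower and 4.81% higher. It held 1 lower gene, Slfn5, a nuclear schlafen protein, at 32.9, 36.2 and 34.2 CPM in KO and 49.5, 68.3 and 64.3 CPM in WT (−0.82, SE 0.14, edgeR adjusted p = 0.0320). It held 1 higher gene, Slfn9, at 11.4, 10.7 and 12.3 CPM in KO and 6.31, 3.75 and 1.60 CPM in WT (1.55, SE 0.40, edgeR adjusted p = 0.0470). These relatives of one family were thus called in opposite directions. Of 21 measured genes induced mainly by interferon gamma, 0 were lower, with 1 at an unadjusted p under 0.05, and 1 was higher, the T cell attractant Cxcl9, at 19.5, 44.8 and 24.3 CPM in KO and 14.6, 8.99 and 6.29 CPM in WT (1.57, SE 0.38, edgeR adjusted p = 0.0425). The median of that list was 0.18. Without KO replicate 1, 2 or 3 or WT replicate 2 edgeR called 0 genes of the related lists in either direction, without WT replicate 3 it called 1 higher and 1 lower, both in the second list, and without WT replicate 1 it called genes in both directions. The last calls were 1 higher and 1 lower among receptors and JAK-STAT, and 4 higher and 1 lower in sensing and adaptors. Among negative regulators they were 3 higher and 0 lower, and in the second list 2 higher and 2 lower. Among interferon-gamma induced genes they were 5 higher and 1 lower. Of all 16230 genes tested in that setting, 2906 were called higher and 2938 lower, so calls were common in both directions. Ifng itself had 8, 17 and 16 counts in the KO libraries and 6, 6 and 3 in the WT libraries, too few to pass the filter.

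**Figure D4:**
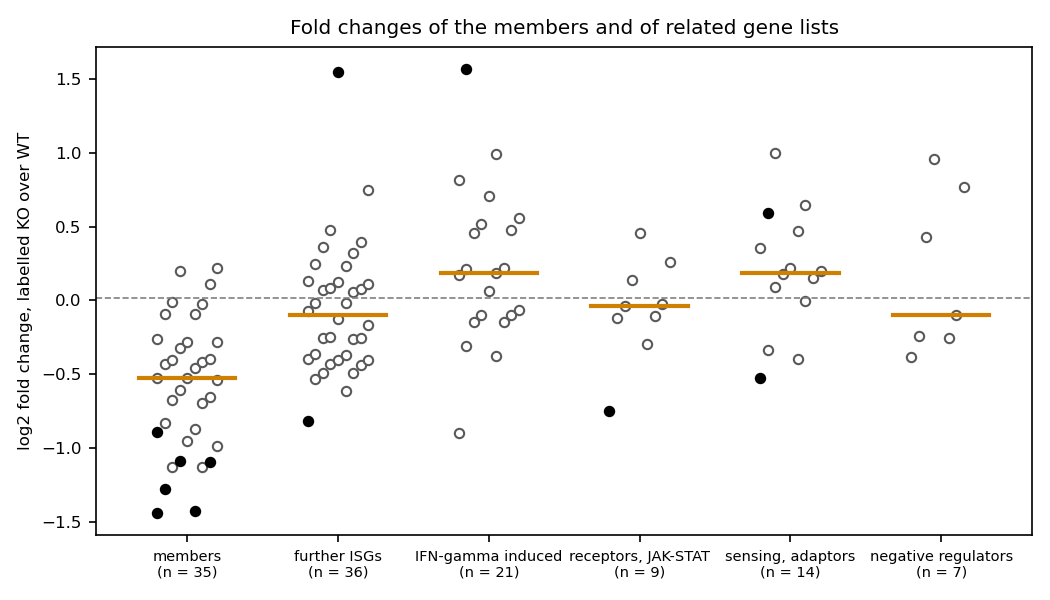
Log2 fold change of KO over WT for each measured gene of the members and of 5 related lists; filled points passed an adjusted p of 0.05, orange bars are list medians and the dashed line is the median over all genes tested. The members' median is −0.53, that of further interferon-stimulated genes −0.10 and that of interferon-gamma induced genes 0.18.

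Marker lists of cell types in the tongue are given beside these values. Over all genes tested, edgeR called 7.43% lower and 4.81% higher, and 20.3% and 18.2% had an unadjusted p under 0.05. Of 20 skeletal muscle genes 7 were lower and 0 higher, and their summed level was 44749 to 63052 CPM in KO and 79180 to 145456 CPM in WT. Of 8 endothelial and 8 fibroblast genes 3 each were lower and 0 higher, with summed levels of 328 to 391 CPM in KO and 455 to 590 CPM in WT for endothelium, and of 939 to 1288 and 1470 to 1768 CPM for fibroblasts. Keratinocyte genes summed to 42636 to 52309 CPM in KO and 21641 to 33057 CPM in WT; 0 of 15 were called, 8 had an unadjusted p under 0.05 with a higher level and 0 with a lower one, and all 15 fold changes were above 0. Keratinocyte and muscle markers were both abundant, as a whole tongue would give. With the mean of the muscle genes added to the model, 33 of 35 members were below 0 with a median of −0.48. Single members changed more than the median: Isg15 went from −1.13 to −0.19, Bst2 from −0.68 to −0.03, Ifi27 from −0.46 to −0.01, Rsad2 from −1.43 to −0.84 and Cmpk2 from −1.10 to −0.55, whereas Stat2 went from −0.09 to −0.46 and Eif2ak2 from −0.01 to −0.60. In that fit 0 members and 0 of all 15903 genes were called, so the muscle level and the label cannot be told apart here.

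Immune cells also express interferon stimulated genes. The counts for their short marker lists stand beside 4.81% of all genes called higher and 7.43% called lower by edgeR. At an unadjusted p under 0.05 in edgeR these shares were 18.2% and 20.3%. Of 5 measured neutrophil genes 3 were higher and 0 lower (summed level 579 to 1874 CPM in KO, 12.6 to 342 CPM in WT, mostly from S100a8 and S100a9, which were not called). The called genes Csf3r, Cxcr2 and Retnlg had KO means of 10.5, 3.14 and 1.16 CPM. Of 9 T and NK cell genes 1 was higher and 0 lower (16.5 to 25.9 and 4.14 to 14.3 CPM). Macrophage and monocyte genes, 9 in number, held 1 higher gene, Cd14, and 1 lower gene, Mertk, with summed levels of 166 to 214 CPM in KO and 196 to 204 CPM in WT. Plasmacytoid dendritic cells are known as strong producers of type I interferon. Their 4 measured genes held 1 higher, Ccr9, and 1 lower, Pacsin1. They summed to 5.17 to 7.72 CPM in KO and 6.98 to 12.0 CPM in WT. Pacsin1 was the largest part of this sum, with means of 3.15 CPM in KO and 6.40 CPM in WT. Ccr9 went the other way, with means of 1.76 CPM in KO and 0.700 CPM in WT. Siglech (−0.10) and Spib (0.0066) were not called and their groups overlapped. The median fold change of this list was −0.048, so the sum does not describe its genes as a set. Conventional dendritic cell genes summed to 25.0 to 28.9 and 16.4 to 28.2 CPM, with 0 of 7 called and 1 in each direction at an unadjusted p under 0.05, and B and plasma cell genes to 403 to 483 and 139 to 329 CPM, mostly from Sdc1, with 0 of 5 called and 1 higher at an unadjusted p under 0.05. Among the markers too low to test, Pax5 had 0 counts in KO replicate 3 and WT replicate 2 and Ncr1 had 0 in WT replicate 3. The part of these other cell types in the values of the interferon stimulated genes was not tested.

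**Figure D5:**
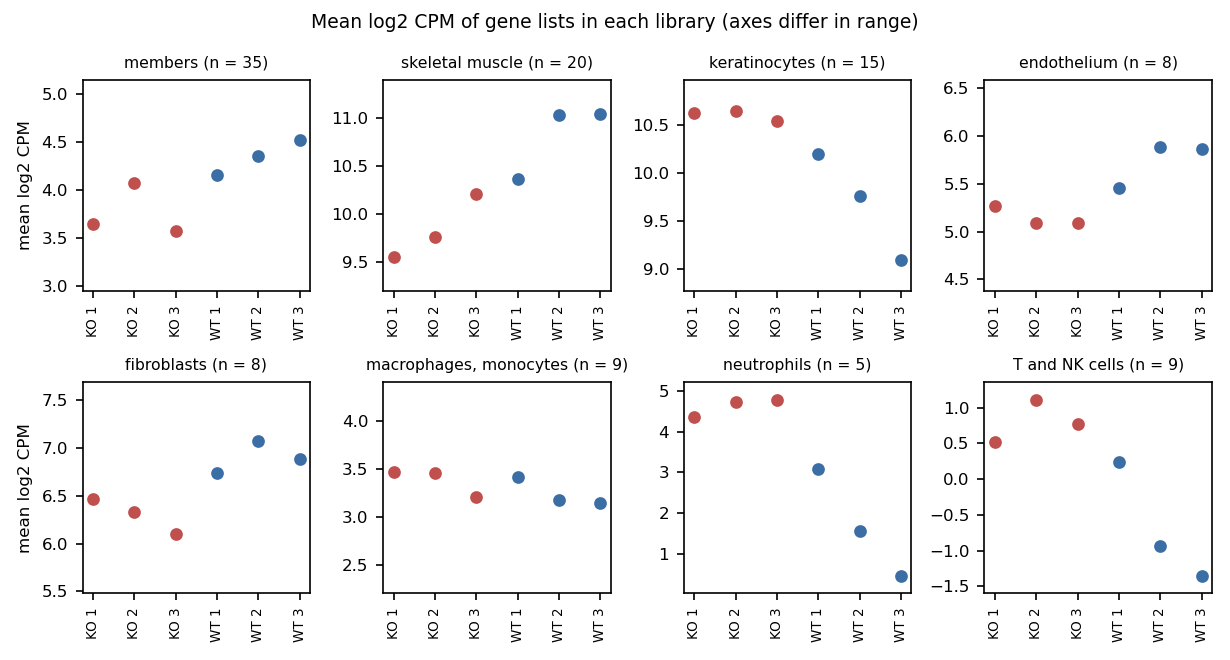
Mean log2 CPM per library of the 35 members and of 7 cell type marker lists, KO in red and WT in blue, on axes that differ in range. The members, muscle, endothelium and fibroblasts are lower in the KO libraries, and keratinocytes, neutrophils and T and NK cells are higher.

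The authors' deposited tables hold their own comparisons, in which the log2 fold change is WT over KO. In the authors' deposited table of all 6 libraries 17 of the 35 members were lower in KO at an adjusted p under 0.05, beside 16.3% of the genes with an adjusted p, and 0 were higher. In the authors' deposited table of KO replicates 1 and 2 with WT replicates 1 and 3 the count was 4 (5.97% of genes), and in that of KO replicates 1 and 2 with WT replicates 2 and 3 it was 15 (19.4% of genes), with 0 higher in each. These tables share libraries and are not independent. For Isg15 the authors' deposited table of all 6 libraries gives a log2 fold change of 0.95 with an adjusted p of 0.0121, whereas the edgeR test above did not call it; for Rsad2 the same authors' deposited table gives 1.32 and an adjusted p of 1.5e-06. For Stat2 the authors' deposited table of all 6 libraries gives 0.10 with an adjusted p of 0.699.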

How the data were processed

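The authors deposited 3 tables, 1 of all 6 libraries and 2 of 4 libraries each. Raw read counts per gene, deposited without normalisation, were taken from the first. Beside them, per the file headers, stand the authors' log2 fold change and p-value with its adjusted form, which were only copied. The submitters' processing notes name HTSeq, DESeq2, hg19 and mm10. Libraries were prepared with a TruSeq RNA kit, per the labels' protocols. Nothing on aligner, annotation or strandedness is given in the sources used here.

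The sample titles gave the groups and replicate numbers. The labels do not state that each library came from its own mouse, so a p-value covers only the spread between these samples, part of which may be technical. KO replicate 1 differed from KO replicates 2 and 3 in Xist and Ddx3y, so these 3 are not repeats of 1 sample. Counts were fitted with edgeR 4.0.16 in R 4.3.3: filterByExpr (a minimum of 10 counts after scaling to library size and of 15 in total), TMM scaling, robust quasi-likelihood with group as the only term, and Benjamini-Hochberg adjustment over 15903 genes. The common biological coefficient of variation was 20.7%. SE is the absolute log2 fold change over the square root of F, so it is approximate. List means used a prior count of 2. At 1 CPM a gene had 25.6 to 53.0 counts. The script was tested on simulated data. Alternatives were RLE scaling, no filter, DESeq2 1.42.0, limma-voom (limma 3.58.1), leaving out each library, a replicate block, muscle mean or Xist status as a covariate, and the authors' 4-library sets.

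The members and lists were chosen with earlier results of these data known. Values per library are given for members called, for the 8 with the highest mean CPM, for the 5 uncalled with the smallest p, and for Isg15, Irf7 and parts of Zbp1 and Ifit2, which were picked after their values were seen. Of each related list up to 4 called genes are named, else the 2 with the smallest p; Ifnar1 and Ifnar2 were added for their role. Of the receptor and JAK-STAT list 1 gene is not reported here. Positions and gene classes are RefSeq's for GRCm38.p6, the assembly called mm10, and matched by gene identifier for 35 of 35. Promoter windows, on the same assembly, were matched by symbol for 25 of the 35. Exon lengths are the union of exons in GENCODE vM21.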

Additional observations from a re-analysis of the deposited data

How the results depend on the processing

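The count of members lower in KO was 6 as reported. It was 8 with RLE scaling, 9 without the filter, 10 by limma-voom and 17 by DESeq2 (beside 7.42%, 6.57%, 8.02% and 15.9% of all genes, against 7.43% as reported), and each of these held the same 6 genes. It was 0 to 18 when 1 library was left out, 0 with the muscle mean or Xist status as a covariate, and 0 and 12 in the 4-library sets with WT replicates 1 and 3 and with WT replicates 2 and 3 (0 and 18.1% of all genes). The cause was not tested. Members higher in KO stayed at 0 and the median fold change at −0.68 to −0.43 under all of these. Members with separate groups numbered 18 as reported, with KO below, and 1 with KO above. When 1 library was left out those with KO below were 18 to 28. Apart from rescaling, leaving out a library cannot make separate groups overlap. That count could therefore only stay or rise and is no check of the separation.

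The labels do not say whether replicate numbers pair the libraries, and with 3 libraries per group the correlations below cannot settle it. Deviations from the group means correlated at 0.12, −0.16 and 0.19 for numbers 1, 2 and 3. KO replicate 3 and WT replicate 3 correlated best with each other, but not every library correlated best with its own number. A fit with a replicate block called 15 members and 13.3% of all genes lower, against 6 members and 7.43% as reported.

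Directions changed only for members with fold changes near 0. With 1 library left out Stat2 ranged from −0.22 to 0.064, Irf9 from −0.25 to 0.038, Eif2ak2 from −0.13 to 0.17, Trim25 from −0.012 to 0.22 and Herc6 from −0.18 to 0.19. In the 4-library sets with WT replicates 1 and 3 and with WT replicates 2 and 3, Stat2 was at 0.097 and 0.045, Irf9 at 0.093 and 0.0067, Eif2ak2 at 0.18 and 0.19, and Herc6 at 0.26 and 0.13. With Xist status Eif2ak2 was at 0.20 and Herc6 at 0.12, and with the muscle mean Trim25 was at −0.20. Depth limits the interferon ligands, at 0 to 2 counts per library.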
